A study of Homo sapiens with 15 samples.

Results

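Cloaked and non-cloaked reporter mRNA were compared across 12 of the 15 RNA-seq libraries of a study of HepG2, a human line derived from hepatocellular carcinoma and labelled wild type. The 9 cloaked libraries (3 each at weak, medium and strong grade) were pooled as the equally weighted mean of their 3 groups and set against the 3 non-cloaked libraries, and the comparison was repeated without weak-cloaked replicate 1. All of these cells received 1 µg of mRNA coding for eGFP, a green fluorescent reporter protein, in the lipid nanoparticle reagent NanoLNP and were lysed at 48 h. Before delivery, weakly cloaked mRNA had spent 0.5 h in 0.1 M CR-3 at 25 °C, mRNA of medium grade 1 h in 0.5 M at 30 °C, and strongly cloaked mRNA 2 h in 1 M at 37 °C. Concentration, time and temperature therefore went up together, and the grades are not a dose series of a single variable. The 3 untransfected libraries, from cells that met neither particle nor mRNA, served only as a background level, and no group received particles without mRNA. The series gives as its aim to learn how cloaking affects gene expression at large.

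Cloaking, as the word is used in RNA chemistry, means a reversible chemical masking of an RNA that can alter how proteins read it. CR-3 is a code name, and the labels do not say what it attaches. Foreign RNA in the cytoplasm can be recognised by RIG-I and MDA5, which signal through MAVS and IRF3 to interferon, and by PKR and the OAS proteins, which curb translation and activate RNase L. Interferon then drives a set of interferon-stimulated genes through a transcription factor complex that binds the interferon-stimulated response element (ISRE) in promoters. RNA inside particles can also meet the endosomal receptor TLR3, which signals through TICAM1. Other responses that delivered RNA and lipid are known to set off include the unfolded protein response, the integrated stress response and immediate early genes.

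Levels are given in CPM, read counts scaled to the size of each library by the trimmed mean of M values, and differences as log2 fold changes, cloaked minus non-cloaked. Library totals ran from 57128519 to 78548789 counts, and 18380 genes passed the filter on low counts. All 8 hepatocyte markers were detected in the 12 libraries, from ALB at 4490 to 6920 CPM down to TTR at 3.1 to 6.88 CPM. Of 15 leukocyte markers 3 were at 0 in all 12 libraries, and their summed level of 1120 to 1170 CPM in non-cloaked and 940 to 1330 CPM in cloaked libraries was nearly all LYZ, which had 871 to 1240 CPM in the cloaked libraries, while the leukocyte surface gene PTPRC reached 0.109 CPM at most. Weak-cloaked replicate 1 stood apart from the other 8 cloaked libraries. On the first principal component of all 15 libraries, which held 31.9% of the variance, it lay at -33.7, the other cloaked libraries between 9.79 and 28.9, the non-cloaked ones between -2.97 and 17.8 and the untransfected ones between -47.6 and -43.1. The repeat without it was set beforehand, because that library lay near the untransfected ones in an earlier analysis of these data. The component shown here is therefore not an independent reason for leaving it out. The repeat is given for many lists and named genes but not for all, so where it is missing a change is not excluded. These are bulk samples, in which fewer cells of a kind and less RNA per cell cannot be told apart.

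In edgeR's fit over all 15 libraries no gene passed the test between cells given cloaked and non-cloaked mRNA, while DESeq2 and a fit of the 12 transfected libraries alone called a few. With edgeR's quasi-likelihood test, adjusted by Benjamini-Hochberg over all genes, 0 of 18380 genes (0%) passed an adjusted p of 0.05, and the smallest adjusted p was 0.604. At an unadjusted p below 0.05 there were 1231 genes (6.7%), 540 with a higher estimate in cloaked cells (2.94%) and 691 with a lower one (3.76%). The split between directions depended on scaling: with total-count scaling it was 337 against 894. DESeq2 called 20 of 17988 genes (0.111%), 18 higher and 2 lower. All 9 cloaked libraries lay above or below all 3 non-cloaked ones in 217 genes (1.18%), 83 above (0.452%) and 134 below (0.729%).

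The absence of calls is not evidence that the transcriptomes were alike, and the intervals say how far apart they could be. The median gene's 95% interval reached 0.51 on the log2 scale to either side of its estimate. For 12074 genes (65.7%) the whole interval lay within a 2-fold difference either way, and for 6871 genes (37.4%) within 1.5-fold. Without weak-cloaked replicate 1, edgeR again called 0 of 18823 genes (0%) with a smallest adjusted p of 0.232, while 1900 genes (10.1%) had an unadjusted p below 0.05, 765 higher (4.06%) and 1135 lower (6.03%). In that repeat DESeq2 called 145 of 18415 genes (0.787%), among them all 20 it had called with 9 cloaked libraries. The 8 remaining cloaked libraries lay apart from the 3 non-cloaked ones in 3.01% of genes, and 64.5% of genes had an interval within 2-fold.

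**Figure D1:**
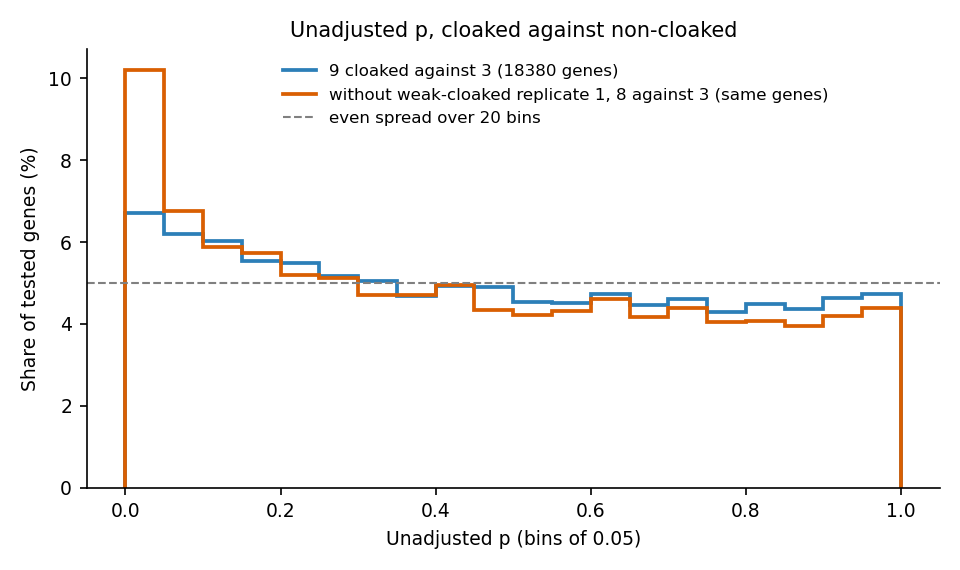
Distribution of unadjusted p-values of cloaked against non-cloaked cells from edgeR's quasi-likelihood test. The x axis gives the p in bins of 0.05 and the y axis the share of the 18380 tested genes in percent. The blue line is the comparison of 9 with 3 libraries and the orange line the one without weak-cloaked replicate 1. The lowest bin holds 6.7% of genes with all 9 libraries and 10.2% without that library, and the dashed line marks an even spread.

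The ISRE is the sequence through which interferon would act on its target genes, so it is shown here for 3 of the genes whose levels follow. The motif searched was GAAA, any 2 bases and GAAA again, or TTTC, any 2 bases and TTTC for the opposite strand, in RefSeq promoter windows on GRCh38.p14, from 250 bases before to 50 after the start of the gene. They occur in 1255 of 35116 such windows (3.57%). Of the 42 interferon-stimulated genes listed, 33 had a promoter entry and 24 of these (72.7%) held the letters. The stretches of 80 bases below lie upstream of the RefSeq start, read 5′ to 3′ on the strand of the gene, with matches in capitals. ISG15 holds 2 overlapping matches on its own strand, IFIT1 has 2 on the opposite strand, and the IFI6 stretch shows 1. The stretches lie at chr1:1013342-1013421 (plus strand, ISG15), chr10:89392463-89392542 (plus strand, IFIT1) and chr1:27672304-27672383 (minus strand, IFI6). None of them overlaps an exon of GENCODE release 29, but all lie within the span of an annotated gene: that of ISG15 in an intron of a longer ISG15 gene model, that of IFIT1 within LIPA and that of IFI6 within AL445490.1, outside their exons.
ISG15: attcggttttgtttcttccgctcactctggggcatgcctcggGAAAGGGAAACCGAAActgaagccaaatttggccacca
IFIT1: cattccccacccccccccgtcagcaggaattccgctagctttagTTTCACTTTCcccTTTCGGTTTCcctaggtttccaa
IFI6: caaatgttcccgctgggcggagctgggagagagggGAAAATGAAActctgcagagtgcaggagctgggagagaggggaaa

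No interferon-stimulated gene passed edgeR's test between cloaked and non-cloaked cells. Of the 42 listed, 38 were tested, 0 were called, and 0 had an unadjusted p below 0.05, against 6.7% of all genes. Their median difference was -0.05, beside -0.0078 over all tested genes, with 16 estimates above 0 and 22 below, where 48.7% of all tested genes had estimates above 0. In the repeat without weak-cloaked replicate 1, 0 were called and 4 of the 38 had an unadjusted p below 0.05, all with lower estimates, beside 6.03% of all genes that were lower at that p, and the median was -0.04. In that repeat 1 of the 38 was lower with no overlap between groups, beside 316 of all 18380 genes. For 25 of the 38 the interval lay within 2-fold with 9 cloaked libraries. The 22 tested genes whose promoter window holds the ISRE letters had a median of -0.04, with a range from -2.09 to 1.24 whose ends belong to SAMD9 and IFI44L, both under 1 CPM. Of the 4 genes too low to test, IFI44 reached 8 counts in its highest library, RSAD2 had 6, XAF1 had 24 and SAMD9L had 0. The interferon gene IFNB1 was likewise not tested, with at most 4 counts in any library.

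ISG15, a ubiquitin-like modifier and one of the most strongly inducible genes of the set (chromosome 1, 1001138 to 1014540 on GRCh38), was measured at 48.2, 56.2 and 67.1 CPM in the non-cloaked libraries and at 37.5 to 63 CPM with a median of 52.8 in the cloaked ones. The cloaked range overlapped the non-cloaked one, and the untransfected libraries lay below both at 26 to 28.5 CPM. The difference was -0.11 ± 0.13 (SE), with an interval from -0.38 to 0.16, and 1 of the 3 non-cloaked libraries decided its sign: without non-cloaked replicate 3 it was 0.02. IFIT1, which binds RNA with foreign 5′ ends (chromosome 10, 89392546 to 89406486), had 2.06, 1.56 and 1.14 CPM in non-cloaked libraries and 0.667 to 2.31 CPM, median 1.38, in cloaked ones. These groups overlapped over most of their range. Its difference was -0.20 ± 0.26 with an interval from -0.75 to 0.36, and without non-cloaked replicate 1 it was 0.04. IFI6, an interferon-inducible protein of mitochondria and endoplasmic reticulum, ranged from 47.7 to 88.9 CPM in non-cloaked libraries and from 45.3 to 97 CPM in cloaked ones, a difference of 0.09 ± 0.24 that turned to -0.11 without non-cloaked replicate 3.

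MX1, an antiviral dynamin-like GTPase, was measured at 1.29, 2.13 and 2.46 CPM without cloaking and at 1.04 to 2.4 CPM, median 1.21, with it. Its difference was -0.46 ± 0.28, with an interval from -1.06 to 0.13. The 2.4 CPM came from weak-cloaked replicate 1, and without that library the difference was -0.59 with an interval from -1.12 to -0.06 and an adjusted p of 0.450 by edgeR. Those of smallest p in the list were SAMD9 at -2.09 ± 0.98, TRIM22 at 0.51 and STAT2 at -0.21, and with 9 cloaked libraries their intervals all included 0. SAMD9 rested on single libraries, with -0.70 without non-cloaked replicate 1. The other 3 genes with a lower estimate at an unadjusted p below 0.05 in the repeat without weak-cloaked replicate 1 were PARP9, PARP12 and STAT2, which were looked up after that count was seen. PARP9, an ADP-ribosyltransferase family member, had 4.47, 3.8 and 3.91 CPM in non-cloaked libraries, 4.96 CPM in weak-cloaked replicate 1 and 1.54 to 3.24 CPM in the other 8, all of them below the non-cloaked ones. Its difference was -0.54 with 9 libraries and -0.68 with 8 (interval from -1.16 to -0.21, adjusted p 0.380 by edgeR). PARP12 went from -0.26 to -0.31, with an interval from -0.58 to -0.05 in the repeat, and STAT2 stayed at -0.21 with an interval that just excluded 0.

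Among 19 tested genes of RNA sensing and its signalling none was called. At an unadjusted p below 0.05, 1 had a higher estimate and 2 a lower one, beside 2.94% and 3.76% of all genes. The median difference was -0.0022, with 9 estimates above 0 and 10 below, and it moved with single libraries. It was -0.14 without weak-cloaked replicate 1, with 6 above and 13 below, and 0.09 without non-cloaked replicate 1. Of the 19, 1 was higher and 3 lower at an unadjusted p below 0.05 without weak-cloaked replicate 1. The shares of all genes were then 4.06% and 6.03%. For 15 of the 19 the interval lay within 2-fold. DHX58 encodes LGP2, the third member of the RIG-I family. It had 2.05, 2.86 and 1.66 CPM in non-cloaked libraries and 2.44 to 4.07 CPM, median 2.86, in cloaked ones, above the 0.681 to 1.34 CPM of untransfected cells. The cloaked range reached into the non-cloaked one, and the difference was 0.52 ± 0.24 with an adjusted p of 0.743 by edgeR.

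TICAM1, the adaptor of TLR3 (chromosome 19, 4815932 to 4831704), had 9.08, 10.1 and 14.3 CPM in the non-cloaked libraries and 6.01 to 8.94 CPM with a median of 7.69 in the cloaked ones. All 9 cloaked libraries lay below all 3 non-cloaked ones, and they spanned the untransfected values of 6.72 to 7.92 CPM. The difference was -0.54 ± 0.15, with an interval from -0.86 to -0.22 and an adjusted p of 0.736 by edgeR, and it was -0.32 without non-cloaked replicate 3, the highest library. IRF3, the transcription factor downstream of MAVS and TICAM1, was measured at 54.5, 59.5 and 76.7 CPM against 46.2 to 61.2 CPM, median 51, a difference of -0.30 ± 0.10 (adjusted p 0.736 by edgeR) that was -0.15 without non-cloaked replicate 3. Its groups overlapped, with the untransfected libraries at 58.5 to 65.4 CPM. The other links of the pathway were closer to 0: MAVS differed by 0.02 with an interval from -0.16 to 0.19, and IFIH1, which encodes MDA5, by 0.26 with one from -0.34 to 0.87.

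Of the 20 genes listed as double-stranded RNA effectors, 0 had an unadjusted p below 0.05 and 18 had an interval within 2-fold, with a median of 0.04. There were 13 estimates above 0 and 7 below. Without weak-cloaked replicate 1 the median was -0.004, with 10 above and 10 below. In that repeat 1 was higher at an unadjusted p below 0.05, beside 4.06% of all genes. EIF2AK2, which encodes PKR, was measured at 27.7, 23.5 and 20.9 CPM in non-cloaked and 22.2 to 37 CPM, median 27.2, in cloaked libraries. The highest of these was weak-cloaked replicate 1, and the untransfected libraries were at 33.9 to 40.8 CPM. The difference was 0.19 ± 0.14, and with offsets for transcript length and GC content it was -0.06. OAS1 makes the second messenger that activates RNase L. It stood at 41.4 to 44.3 CPM in non-cloaked, 36.3 to 42.5 in cloaked and 19.1 to 27.9 in untransfected cells, a difference of -0.14 with an interval from -0.36 to 0.09. OAS3 differed by -0.04 (interval from -0.24 to 0.15), and ADAR, which edits double-stranded RNA, by 0.06 (interval from -0.10 to 0.23).

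**Figure D2:**
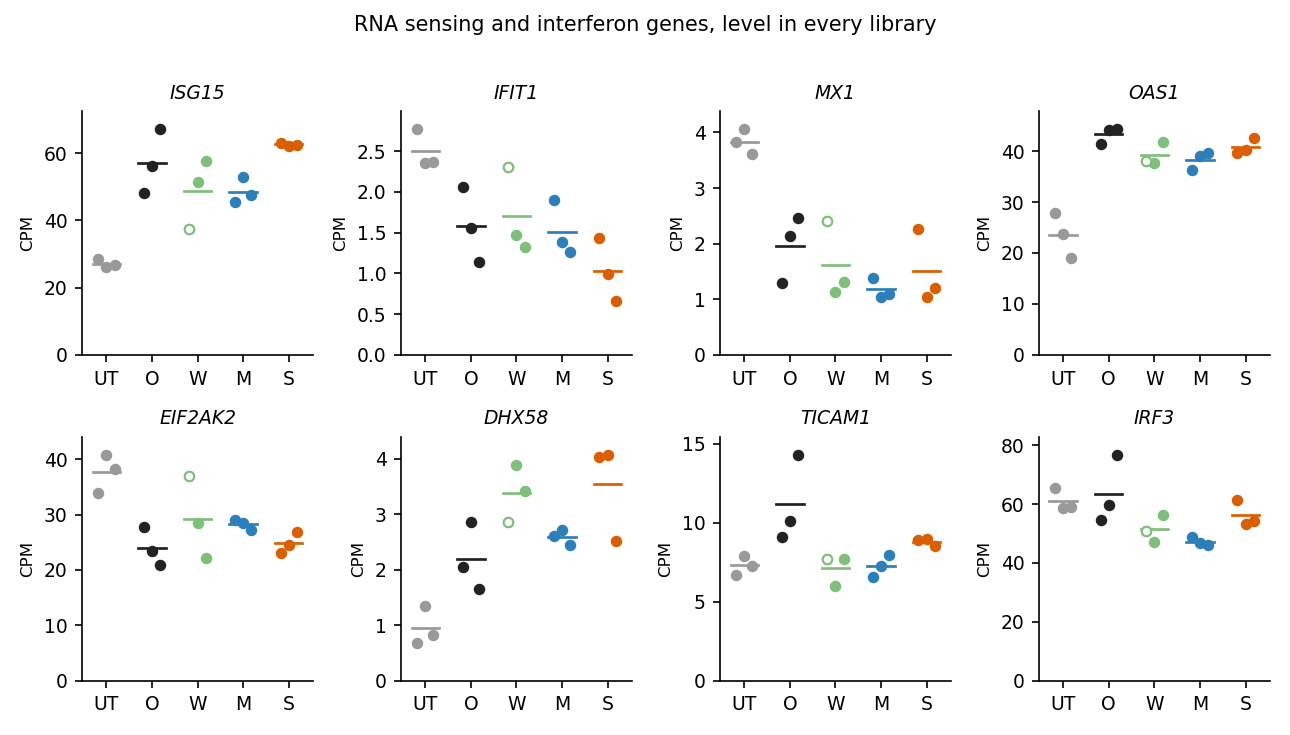
Levels of 8 RNA sensing and interferon genes in every library. Each panel is a gene, the y axis is CPM from 0, and the x axis gives untransfected (UT), non-cloaked (O), weak-cloaked (W), medium-cloaked (M) and strong-cloaked (S) groups. Dots are libraries, the open dot is weak-cloaked replicate 1, and bars are group means. TICAM1 shows all 9 cloaked libraries, at 6.01 to 8.94 CPM, below the non-cloaked ones, while the ranges of ISG15 and IFIT1 overlap.

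The median of NF-kB targets and cytokines changed its sign with a single control library. Of 26 listed, 20 were tested, and the median was -0.18, with 4 estimates above 0 and 16 below. At an unadjusted p below 0.05, 0 had a higher and 2 a lower estimate, beside 2.94% and 3.76% of all genes. Without non-cloaked replicate 3 the median of the list was 0.07, and without non-cloaked replicate 2 it was -0.29. The chemokine gene CXCL2 had 0.495, 0.424 and 7.03 CPM in the non-cloaked libraries and 0.11 to 0.838 CPM in the cloaked ones, so that its difference of -2.24 ± 0.78 became 0.28 without non-cloaked replicate 3. IER3, an early response gene, had 524 CPM in that library beside 258 and 293 in the other two, and its difference went from -0.30 to 0.08. The neutrophil chemokine gene CXCL8 had 11.9, 7.58 and 18.2 CPM beside 8.03 to 15.6 CPM in cloaked cells, and its difference went from -0.15 to 0.21. Other members peaked in other control libraries. NFKBIE had 12.2, 3.15 and 5.43 CPM in the non-cloaked libraries, with a difference of -0.83. NFKB2 had 47.5, 85.6 and 49.5 CPM there, with a difference of 0.38. CXCL3 was below 0.5 CPM in all 12 libraries and at 0 in the 3 medium-cloaked ones. CXCL10, IL6, IL1B, CCL5 and IFNL1 were too low to test, with at most 15 counts in any library (CCL5).

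The 10 genes of smallest p all had higher estimates in cloaked cells, and in all 10 the mean of the untransfected libraries also lay above that of the non-cloaked ones. None passed edgeR's test, in which each had an adjusted p of 0.604. All 10 were among the 20 that DESeq2 called. As the 10 smallest of 18380 p-values they were picked for their difference, so their sizes are given as description. With higher estimates in cloaked cells, the choice favours genes that were low in the non-cloaked libraries. The untransfected means were set against those same libraries. That they lay above in all 10 is therefore not independent of the choice, and no conclusion is drawn from it.

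MTIF3, a translation initiation factor of mitochondria (chromosome 13, 27435643 to 27450591), led the list. It had 4.87, 6.38 and 5.55 CPM in non-cloaked libraries and 7.88 to 11.6 CPM, median 10.2, in cloaked ones. Untransfected cells had 6.87 to 8.14 CPM, which reached into the cloaked range. The 9 cloaked libraries lay above the 3 non-cloaked ones, the difference was 0.81 ± 0.15 (unadjusted p 8.13e-05 by edgeR), and DESeq2's adjusted p was 2.72e-05. SVIL encodes supervillin, a membrane-linked actin- and myosin-binding protein (chromosome 10, 29457338 to 29736781). It was measured at 0.66, 1.01 and 0.802 CPM without cloaking and at 6.27 to 15.4 CPM, median 7.65, with it. The groups were far apart, yet the untransfected libraries spanned both, at 7.55, 4.78 and 0.592 CPM. Its difference was 3.41 ± 0.62, and with the 12 transfected libraries fitted alone it passed edgeR's test at an adjusted p of 0.00475.

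A gene that differs 8-fold or more between replicates of a group with at least 100 counts in the higher library, as SVIL did in untransfected cells, was one of 643 such genes (3.5% of those tested). MVB12A, a subunit of the ESCRT-I complex of endosomal sorting, had 4.87, 7.28 and 5.85 CPM without cloaking and 10.3 to 33.8, median 24.5, with it, beside 9.2 to 22.7 in untransfected cells. The groups were apart, and the difference was 1.90 ± 0.37. CPEB4, which binds cytoplasmic polyadenylation elements of mRNA, had 2.7, 3.19 and 4.93 CPM against 5.2 to 33.7, median 16.8, a difference of 2.08 ± 0.43. Its weak-cloaked libraries were the highest, at 21.2 to 33.7 CPM.

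CXADR, the receptor of coxsackievirus and adenovirus and a tight junction protein, had 61.2, 75.2 and 54.1 CPM against 77.9 to 129, median 109, a difference of 0.73 ± 0.15. DCAKD, a protein with a dephospho-CoA kinase domain, had 19.4, 30.9 and 28.8 CPM against 37 to 64.8, median 58.4, a difference of 1.09 ± 0.22. Both had separate groups, and in DCAKD the lowest cloaked value came from weak-cloaked replicate 1. SLC25A30, a mitochondrial carrier, differed by 0.90 ± 0.18 with 1 overlapping cloaked library. SMG1P2, a pseudogene of the decay kinase SMG1 whose reads may be shared with its close copies, differed by 1.62 ± 0.30, and ZBED9, a zinc finger gene, by 2.01 ± 0.41. Both were under 1.3 CPM in all 12 libraries.

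**Figure D3:**
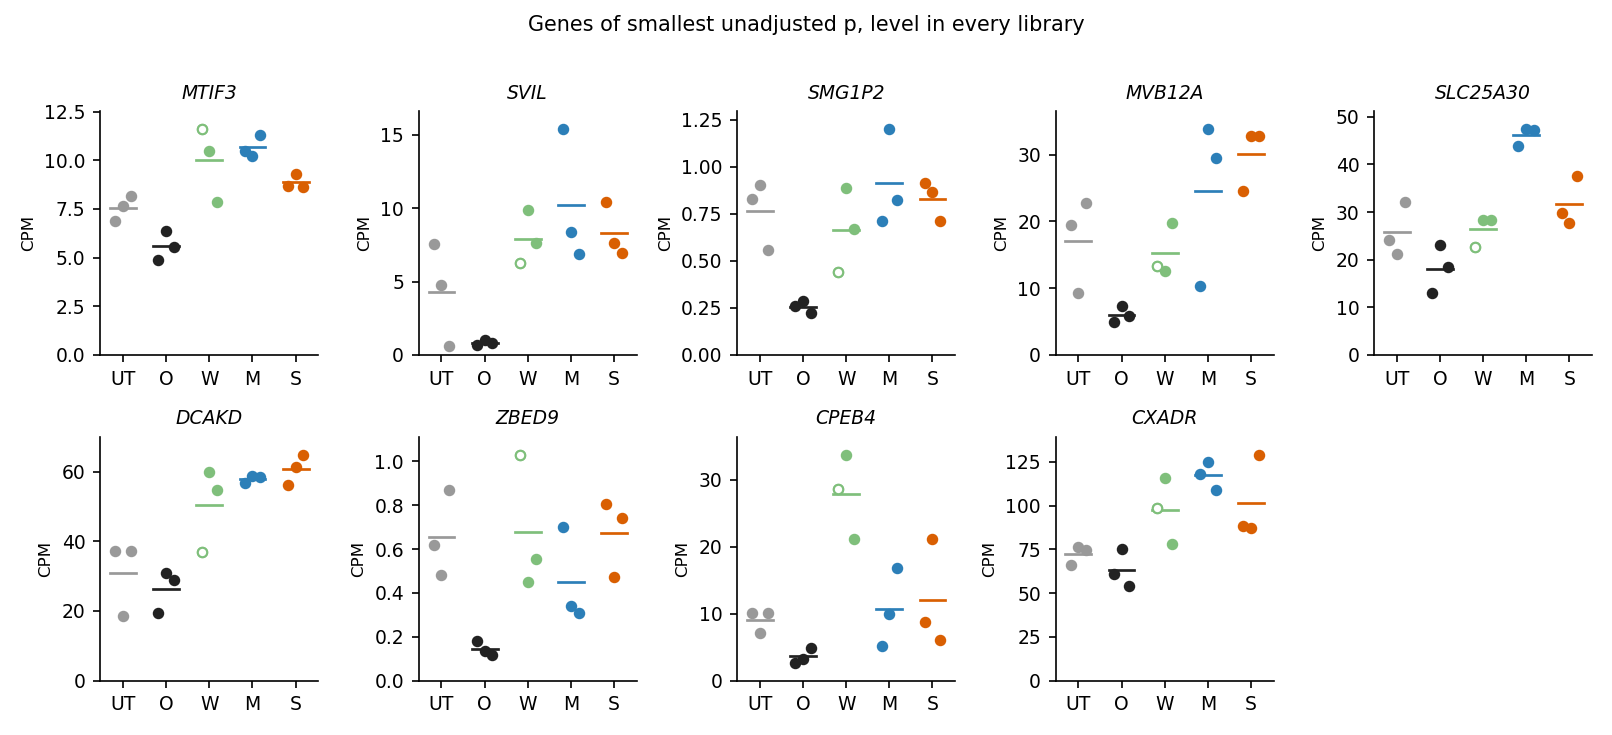
Levels of 9 of the 10 genes of smallest unadjusted p in every library. The y axis of each panel is CPM from 0, and groups, dots, the open dot (weak-cloaked replicate 1) and bars are as for the innate genes. The non-cloaked libraries (O) are low beside the cloaked ones in each panel. The untransfected ones (UT) reach into the cloaked range in several panels, as for MTIF3 at 6.87 to 8.14 CPM beside 7.88 to 11.6.

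Only MT-CO2 and REEP4 had lower levels in cloaked cells among the 20 genes DESeq2 called. REEP4, a protein that shapes the endoplasmic reticulum during mitosis, was named after its values were seen. It had 31.3, 30.2 and 36.8 CPM in non-cloaked and 18.2 to 25.1 CPM in cloaked libraries, without overlap, beside 25.3 to 34.5 in untransfected cells. Its difference was -0.54 ± 0.12, with an adjusted p of 0.637 by edgeR and 0.0304 by DESeq2.

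The mitochondrially encoded mRNAs had 13 of 13 estimates below 0, with 4 at an unadjusted p below 0.05 and a median of -0.15, beside 3.76% of all genes that were lower at that p. Their summed level was 24100 to 25100 CPM in non-cloaked and 20200 to 22600 CPM in cloaked libraries, without overlap, and 20900 to 24400 CPM in untransfected cells. Without weak-cloaked replicate 1, 6 of the 13 were lower at that p, beside 6.03% of all genes, and the median was -0.19. The genes are transcribed together from the mitochondrial genome, so the 13 are not independent. MT-CO2, a subunit of cytochrome c oxidase, was measured at 4390, 4110 and 4240 CPM without cloaking and at 3170 to 3600 CPM, median 3430, with it. The groups were apart and the untransfected libraries spanned 3170 to 3890 CPM. The difference was -0.32 ± 0.07, with an interval from -0.47 to -0.17 and an adjusted p of 0.696 by edgeR and 0.0281 by DESeq2.

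The other oxidase subunits were MT-CO1 at -0.26 ± 0.08, also without overlap, and MT-CO3 at -0.25 ± 0.08, with MT-CYB of the cytochrome b-c1 complex at -0.20 ± 0.09. The NADH dehydrogenase subunit genes MT-ND5 and MT-ND6 differed by -0.04 and -0.04. As a share of all counts, mitochondrial mRNAs made up 2.3% to 2.57% in non-cloaked libraries and 1.98% to 2.08% in 8 of the cloaked ones, with weak-cloaked replicate 1 at 2.44%. MT-ND4 and MT-ND4L overlap on the genome, and nearly all of their reads were counted to MT-ND4L.

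Genes of the unfolded protein response had 19 of 25 estimates above 0, both with and without weak-cloaked replicate 1. At an unadjusted p below 0.05, 3 of 25 had higher estimates with 9 cloaked libraries, beside 2.94% of all genes, and 0 had lower ones, with a median of 0.09. Without that library 6 of 25 had higher estimates, beside 4.06% of all genes, and the median was 0.12. HSPA5, the chaperone BiP, had 1560, 1700 and 1700 CPM in non-cloaked libraries. Among the cloaked ones it had 1350 CPM in weak-cloaked replicate 1 and 1680 to 2610 CPM in the other 8, and untransfected cells had 1130 to 1240 CPM. Its difference was 0.38 ± 0.17 with 9 libraries and 0.46 with 8 (interval from 0.21 to 0.71, adjusted p 0.284 by edgeR). The disulfide isomerase PDIA3 differed by 0.17 with 9 libraries and by 0.22 with 8, and then did not overlap, with 1330 to 1510 CPM against 1200 to 1290. HSP90B1, which encodes the chaperone GRP94, differed by 0.40 ± 0.13 and CANX, the lectin chaperone calnexin, by 0.21 ± 0.09.

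DDIT3, which encodes the transcription factor CHOP of the integrated stress response (chromosome 12, 57516588 to 57521737), was measured at 20.4, 24 and 20.6 CPM in non-cloaked libraries. It had 19.3 CPM in weak-cloaked replicate 1 and 27.3 to 52.3 CPM, median 40, in the other 8. Only that library did not lie above the non-cloaked group, and untransfected cells had 12.3 to 16.3 CPM. The difference was 0.78 ± 0.24 with 9 libraries and 0.88 with 8, the latter with an interval from 0.48 to 1.29 and an adjusted p of 0.270 by edgeR and 0.0038 by DESeq2. In the remainder of the ATF4 target list, CEBPB had a lower estimate (-0.31 ± 0.09) and no other gene had an unadjusted p below 0.05. The stress factor ATF3 differed by 0.10 with an interval from -0.50 to 0.69, and without non-cloaked replicate 1 by -0.02.

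Immediate early genes held members of both signs, 2 higher and 1 lower of 28 at an unadjusted p below 0.05. The shares of all genes were 2.94% and 3.76%. CCN1, a matricellular protein and target of YAP, had 77.1, 114 and 115 CPM in non-cloaked libraries, 65.2 in weak-cloaked replicate 1 and 106 to 247, median 206, in the other 8, with 30.5 to 38.2 CPM in untransfected cells. Its difference was 0.84 ± 0.34 with 9 libraries and 0.97 with 8 (adjusted p 0.270 by edgeR, 0.00496 by DESeq2). FOSB, a component of AP-1, followed the same order, with 1.33 to 2.02 CPM without cloaking, 0.806 in weak-cloaked replicate 1 and 2.26 to 7.29 in the other 8. Its difference was 1.17 ± 0.48 with 9 libraries and 1.33 with 8. MYC had 136, 133 and 172 CPM against 72.3 to 135, the highest being weak-cloaked replicate 1, a difference of -0.58 ± 0.20. Without that library the difference was -0.67, and the groups did not overlap (adjusted p 0.285 by edgeR). PCK1, the gluconeogenic enzyme PEPCK, had 30, 13.2 and 27.8 CPM against 20 in weak-cloaked replicate 1 and 34.4 to 51.3 in the others, with 7.04 to 11.4 in untransfected cells, a difference of 0.69 ± 0.28. It was 0.79 without weak-cloaked replicate 1, and the groups then did not overlap (adjusted p 0.33 by edgeR).

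Without weak-cloaked replicate 1, the 145 genes that DESeq2 called (0.787% of those tested) included 7 list members. They were CCN1, DDIT3, FOSB, PDIA3, PABPC1, RPS16 and, with a lower level, MT-CO2, and they are given as single genes, not as a result about the lists. In HSPA5, CCN1, FOSB and DDIT3 alike, the group means stood in the order untransfected, non-cloaked, cloaked, and the library left out lay below every non-cloaked one. What part the position of that library played in these differences was not tested beyond leaving it out.

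**Figure D4:**
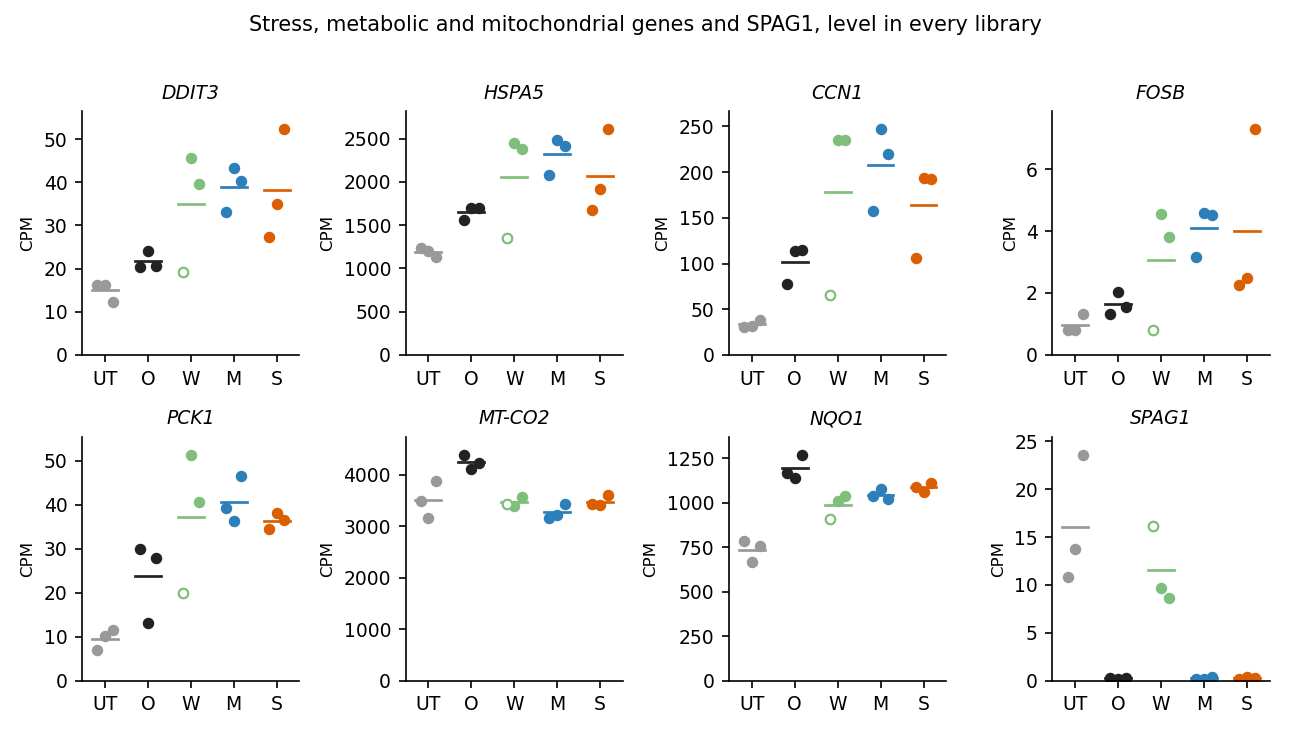
Levels of 8 stress, metabolic and mitochondrial genes, SPAG1 included, in every library, drawn as for the other genes with CPM from 0 on the y axis. In DDIT3, HSPA5, CCN1, FOSB and PCK1 the open dot (weak-cloaked replicate 1) lies apart from the other cloaked libraries, as at 19.3 CPM in DDIT3. MT-CO2 and NQO1 are lower in all 9 cloaked libraries than in the non-cloaked ones, and SPAG1 is high only in untransfected and weak-cloaked cells.

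Heat shock genes had a median of 0.19, with 3 of 22 higher at an unadjusted p below 0.05, beside 2.94% of all genes, and 0 lower. The constitutive chaperone HSPA8 differed by 0.40 ± 0.15, HSP90AA1 by 0.41 ± 0.17 and the co-chaperone DNAJA1 by 0.24. HSPA8 had 643, 642 and 493 CPM in non-cloaked libraries, 586 to 924 CPM, median 780, in cloaked ones and 583 to 775 in untransfected cells, so the groups overlapped. NRF2 targets are the oxidative stress list. Of 28, 0 were higher and 2 lower at an unadjusted p below 0.05, beside 2.94% and 3.76% of all genes. Their median was -0.08, with 10 estimates above 0 and 18 below. Without weak-cloaked replicate 1 it was -0.01, with 14 above and 14 below. In that repeat 0 were higher and 1 lower, beside 4.06% and 6.03% of all genes. NQO1, a quinone reductase, had 1170, 1140 and 1270 CPM without cloaking and 908 to 1110, median 1040, with it, without overlap, while untransfected cells had 665 to 786. Its difference was -0.20 ± 0.07 with an adjusted p of 0.736 by edgeR.

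Translation factors had the largest count of higher members, 7 of 37 at an unadjusted p below 0.05, beside 2.94% of all genes, and 0 lower, with a median of 0.05 and 36 of 37 intervals within 2-fold. They were EIF4G3 (0.45 ± 0.17), the cap-binding protein gene EIF4E (0.35), the helicase gene EIF4A2 (0.30), EIF2S3 (0.24), EIF3H (0.20) and the poly(A)-binding protein genes PABPC1 (0.27 ± 0.09) and PABPC4 (0.18). EIF3H had 285, 281 and 278 CPM in non-cloaked libraries and 291 to 352 CPM, median 318, in cloaked ones, without overlap, and 244 to 275 in untransfected cells. PABPC1 had 1010, 920 and 928 CPM against 987 to 1290, median 1170, with overlap at the lowest value. Without weak-cloaked replicate 1, 9 of the 37 translation factors were higher at an unadjusted p below 0.05, beside 4.06% of all genes. In that repeat 0 were lower. Cytosolic ribosomal protein genes had a median of -0.0023, with 16 of 36 estimates above 0, and 34 intervals lay within 2-fold. At an unadjusted p below 0.05, 2 of the 36 were higher, beside 2.94% of all genes. Without weak-cloaked replicate 1 the median was 0.05, with 28 of 36 estimates above 0 and 5 higher, beside 4.06% of all genes. The exception in size was RPS16, at 169, 523 and 428 CPM against 514 to 1310, a difference of 1.42 ± 0.43. Its untransfected libraries ranged from 214 to 796 CPM, and its many pseudogenes make its counts uncertain.

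RNA modification and splicing regulators had 5 higher and 0 lower of 32 at an unadjusted p below 0.05, beside 2.94% and 3.76% of all genes, with a median of 0.09. Leaving out weak-cloaked replicate 1 gave 5 higher and 3 lower, beside 4.06% and 6.03%, with a median of 0.04. HNRNPA2B1, a reader and splicing factor, had 446, 631 and 623 CPM against 614 to 810, median 740, a difference of 0.38 ± 0.11. The others were CLK1 (0.50), YTHDF3 (0.47), PUS1 (0.42) and HNRNPA1 (0.18). With offsets for length and GC content and the replicate block the list's median was -0.03. Among 34 genes of mRNA decay, 2 were higher and 2 lower, beside 2.94% and 3.76% of all genes, with a median of 0.11. Without weak-cloaked replicate 1, 3 were higher and 4 lower, beside 4.06% and 6.03%, and the median was 0.05. CNOT8, a deadenylase subunit, had 97.2, 99.9 and 74.2 CPM against 106 to 134, median 117, without overlap, a difference of 0.39 ± 0.12. The decapping enzyme gene DCP2 differed by 0.53, its cofactor gene EDC4 by -0.26 and the exosome subunit gene EXOSC4 by -0.33.

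Estimates varied with the base composition of the transcript. With tested genes cut into 4 equal bins by GC content, the median difference was 0.14 in the lowest bin and -0.11 in the highest, beside 0.07 and -0.08 without weak-cloaked replicate 1. Bins by transcript length had medians from -0.05 to 0.06. What these trends contribute to a list's median was not tested beyond the fit with offsets, in which 1109 genes had an unadjusted p below 0.05 and 0 were called by edgeR.

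Mitotic and DNA replication genes had medians of opposite sign. Of 30 mitotic genes 5 were higher at an unadjusted p below 0.05, beside 2.94% of all genes, and 0 lower, with a median of 0.16. The median was 0.08 without weak-cloaked replicate 1, with 4 higher and 1 lower, beside 4.06% and 6.03% of all genes. It was 0.07 without non-cloaked replicate 3 and 0.30 without non-cloaked replicate 1. TPX2, a spindle assembly factor, had 65.4, 205 and 170 CPM in non-cloaked libraries and 181 to 326, median 250, in cloaked ones, a difference of 0.81 ± 0.28 that was 0.47 without non-cloaked replicate 1, with ANLN at 0.71, DLGAP5 at 0.45, TOP2A at 0.44 and NUSAP1 at 0.32. Of 31 DNA replication genes 0 were higher and 2 lower, beside 2.94% and 3.76% of all genes, with a median of -0.05 and 21 estimates below 0. When weak-cloaked replicate 1 was left out, 8 of the 31 were lower, beside 6.03% of all genes, and 24 estimates lay below 0. In that repeat 4 of the 31 were lower without overlap between groups, beside 316 of all 18380 genes. The helicase cofactor gene CDC45 had 22.3, 23.8 and 30.3 CPM against 16.2 to 21.6, median 19.2, without overlap, a difference of -0.40 ± 0.14, and MCM5 differed by -0.25. Histone genes had a median of 0.20 over 16 genes, and H1-4 went from -1.30 to 0.15 without non-cloaked replicate 3. At an unadjusted p below 0.05, 0 histone genes were higher and 1 lower, beside 2.94% and 3.76% of all genes. Without weak-cloaked replicate 1, 3 were higher and 0 lower, beside 4.06% and 6.03%, and the median was 0.28. Among 25 targets of p53, ZMAT3 (0.58) and RRM2B (0.62) were higher and PHLDA3 (-0.20) lower at an unadjusted p below 0.05. At that p 2.94% of all genes were higher and 3.76% lower. The median of the p53 targets was 0.11. It was 0.20 without weak-cloaked replicate 1, with 2 higher and 2 lower, beside 4.06% and 6.03% of all genes.

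Liver transcription factors had the lowest median of the lists, -0.22, with 17 of 21 estimates below 0 and, at an unadjusted p below 0.05, 4 lower, beside 3.76% of all genes, and 1 higher. The median was -0.28 without weak-cloaked replicate 1, with 5 lower and 0 higher, beside 6.03% and 4.06% of all genes. FOXA3 had 31.2, 24.8 and 49.8 CPM in non-cloaked and 19 to 30.6 CPM, median 24.5, in cloaked libraries, a difference of -0.56 ± 0.18 that was -0.23 without non-cloaked replicate 3. GATA4 differed by -0.41 ± 0.18. Both overlapped between groups, as did CEBPB, at 136, 154 and 183 CPM against 109 to 149. ONECUT2 had a higher estimate, 0.43 ± 0.19. With the offsets for length and GC content and the replicate block the median was -0.14.

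Products of hepatocytes had a median of 0.09 over 26 genes, with ALB (0.24 ± 0.11) and the fetal protein gene AFP (0.22 ± 0.09) higher at an unadjusted p below 0.05 and 0 lower. At that p 2.94% of all genes were higher and 3.76% lower. Of 21 acute-phase genes 0 were higher and 2 lower at an unadjusted p below 0.05, beside 2.94% and 3.76% of all genes. Their median was 0.0064. Without weak-cloaked replicate 1 it was 0.08, with 2 higher and 3 lower, beside 4.06% and 6.03% of all genes. HAMP, which encodes the iron hormone hepcidin, had 111, 102 and 159 CPM against 56.6 to 109, median 76.5, in cloaked and 99.7 to 164 in untransfected cells. The cloaked libraries above 100 CPM were weak-cloaked replicate 1 and strong-cloaked replicate 1, and the difference was -0.66 ± 0.18. Of 21 genes of drug metabolism and transport, CYP1A1 was the 1 at an unadjusted p below 0.05, at -0.35, beside 3.76% of all genes that were lower. No gene of glycolysis and hypoxia (30 tested), cholesterol synthesis (26), metallothioneins and metal response (12) or antigen presentation (25) had an unadjusted p below 0.05, and their medians were 0.12, 0.10, 0.18 and 0.05. Without weak-cloaked replicate 1, 3 of the 25 antigen presentation genes were higher at that p, beside 4.06% of all genes, and their median was 0.09. In that repeat 1 each of the glycolysis, cholesterol and metallothionein lists was higher, beside the same 4.06% of all genes. With offsets for length and GC content the metallothionein median was 0.06. Of 20 genes of fat synthesis, ACACA (0.42) and GPAM (1.73 ± 0.63) were higher and DGAT2 (-0.25) lower, beside 2.94% and 3.76% of all genes.

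Genes of the route that particles take into the cell had medians near 0. Of 32 genes of endosomal uptake and sorting, which had a median of 0.06, 0 were higher and 2 lower at an unadjusted p below 0.05. The shares of all genes were 2.94% and 3.76%. CHMP6, an ESCRT-III subunit, differed by -0.50 ± 0.16 (-0.26 without non-cloaked replicate 3), and the early endosome GTPase gene RAB5C by -1.16. Of 35 lysosome and autophagy genes 1 was higher (TFE3, 0.44) and 2 lower (SQSTM1 and ATP6V0D1), beside 2.94% and 3.76% of all genes. Their median was 0.06, with 19 estimates above 0. Without weak-cloaked replicate 1 it was 0.11, with 25 above 0. In that repeat 2 were higher and 3 lower, beside 4.06% and 6.03% of all genes. SQSTM1, the autophagy receptor p62, had 350, 349 and 468 CPM without cloaking and 163 to 326, median 272, with it, without overlap, while untransfected cells had 223 to 286. Its difference was -0.58 ± 0.19 with an adjusted p of 0.736 by edgeR.

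Whether pooling hid differences between grades was examined with an F test across the weak, medium and strong groups, which does not use the non-cloaked libraries as a contrast. By edgeR it called 1 of 18380 genes (0.00544%), with 601 (3.27%) at an unadjusted p below 0.05, and DESeq2 called 19. The gene was SPAG1, an assembly factor of dynein arms. It had 16.2, 9.67 and 8.68 CPM in weak-cloaked cells, 0.188, 0.219 and 0.338 in medium-cloaked, 0.146, 0.377 and 0.233 in strong-cloaked, 0.316, 0.178 and 0.307 in non-cloaked and 10.8, 13.8 and 23.6 in untransfected cells. The weak grade and untransfected cells were high, and the other 3 groups were at a low level with no overlap. The F test gave an adjusted p of 2.57e-05, and the pooled difference of 1.74 ± 0.37 therefore describes none of the grades. Without weak-cloaked replicate 1, 3 of 18823 genes were called (0.0159%), with 792 (4.21%) at an unadjusted p below 0.05. They were SPAG1 and, each at an adjusted p of 0.0438, MZT2A and KIAA0408. MZT2A, a subunit gene of the gamma-tubulin complex whose near-identical copy MZT2B can share its reads, had 11.7 and 17.6 CPM in the remaining weak-cloaked libraries, 33.4 to 59.4 in medium-cloaked and 57.3 to 93.2 in strong-cloaked ones. KIAA0408 was under 2 CPM throughout.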

How the data were processed

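Poly(A)-enriched, strand-specific libraries were sequenced as 150 bp read pairs after an RNA integrity check (cutoff 7.0), per the labels' protocols. The authors deposited raw read counts per gene symbol in 1 matrix of 41412 rows, of which 14176 were 0 in every library. HISAT2, HTSeq, DESeq2 1.46.0, R 4.4.2 and GRCh38 are named in the submitters' processing notes. For the counting, annotation and strand setting are not given in the sources, so overlapping, antisense and copied genes are uncertain. The 1330 rows that share a symbol were kept apart. The reporter mRNA was not analysed here.

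Low genes were removed with filterByExpr of edgeR 4.0.16 (defaults, limma 3.58.1, R 4.3.3), libraries scaled by TMM, and a robust quasi-likelihood model with 1 mean per group fitted to all 15 libraries. The contrast was the mean of the 3 cloaked groups minus non-cloaked, with Benjamini-Hochberg adjustment over all tested genes and calls below 0.05. Intervals are at 95%, and errors are standard errors. The common biological coefficient of variation was 0.344, so in genes with many counts the spread between replicates rather than depth set the precision. In genes with few counts, such as SAMD9 at 0 to 10 counts in the cloaked libraries, low counts limited it as well. Replicates are stated to be biological, and pairs within groups differed by far more than counting noise. The procedure was also run on simulated counts with planted differences. Those counts held no library that stood apart and no differences between grades, so that run cannot vouch for the results in the real data.

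The comparison, its 33 gene lists and the rules for naming genes were chosen with earlier results of these data known. Genes named are the 10 of smallest p, the member of smallest p in each list (6 in the innate lists) and the leading genes among grades. Some genes that meet these rules are not reported here. Other list members, and the genes called in alternatives, were named after their values were seen. A gene could be tested only if its counts passed the filter, and 45 list entries did not. GENCODE release 29 gave positions, transcript lengths and GC content, and RefSeq the promoters. Alternatives were DESeq2 1.42.0, other scalings and filters, a fit of 12 libraries, offsets, the replicate block and leaving out each library. DESeq2 and the block without weak-cloaked replicate 1 were added after seeing the data.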

Additional observations from a re-analysis of the deposited data

Results flagged for a closer look

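Within the 9 cloaked libraries 106 measures were tested for a library standing apart by Dixon's criterion, and 22 were, 18 of them through weak-cloaked replicate 1. Chance alone marks about 5% of groups, and the measures overlap in their genes. In weak-cloaked replicate 1 the scaling factor was 1.11, mitochondrial mRNAs took 2.44% of counts, and its positions on the first component were -33.7 over 15 libraries and -54.9 over the 12 transfected ones. Median list levels there, on the log2 scale against the non-cloaked mean, were -0.286 for antigen presentation, -0.228 for the unfolded protein response, -0.277 for p53 targets, -0.345 for immediate early genes and -0.356 for NRF2 targets. They were -0.169 for lysosome and autophagy, -0.401 for ribosomal proteins, -0.262 for hepatocyte products, -0.287 for acute-phase genes and 0.379 for RNA modification and splicing regulators. Single genes that stood apart in it were DCAKD at 37 CPM, MYD88 at 13.1, NQO1 at 908 and PCK1 at 20.

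Other libraries stood apart in 4 measures. Weak-cloaked replicate 3 had a median of -0.125 in mitotic genes, where the other 8 had 0.0875 to 0.289, and weak-cloaked replicate 2 had 12.3 CPM of NFKBIE. OASL had 1.55 CPM in strong-cloaked replicate 3, and VEGFA had 225 CPM in strong-cloaked replicate 2.

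Differences between grades passed edgeR's F test for SPAG1 (adjusted p 2.57e-05) and, without weak-cloaked replicate 1, for MZT2A (adjusted p 0.0438) and KIAA0408 (adjusted p 0.0438). With all 9 cloaked libraries MZT2A and KIAA0408 each had an adjusted p of 0.997.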

How the results depend on the processing

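The count of genes called in cloaked against non-cloaked cells was 0 under every edgeR setting over all 15 libraries. It was 1 with the 12 transfected libraries alone (SVIL), 20 with DESeq2, and 0 to 1 on leaving out single libraries, the 1 being UTRN without non-cloaked replicate 1, where that library had 15.3 CPM and the other two 0.588 and 0.871. Among grades it was 19 with DESeq2 and 1 to 3 on leaving out single libraries: 3 without weak-cloaked replicate 1 or medium-cloaked replicate 2, and 2 without non-cloaked replicate 2, weak-cloaked replicate 2, medium-cloaked replicate 3 or strong-cloaked replicate 1. Without weak-cloaked replicate 1, DESeq2 called 145 genes in the pooled comparison and 36 among grades. Genes at an unadjusted p below 0.05 numbered 732 without non-cloaked replicate 3, 1704 without non-cloaked replicate 1 (57.5% of them higher, beside 43.9%) and 1900 without weak-cloaked replicate 1. Total-count scaling left 27.4% of them higher.

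Whether the replicate numbers pair libraries was not settled. Deviations of same-numbered libraries correlated at -0.0653 to 0.304 (median 0.0101), with 3 of 18 pairs over 0.1. Those of differently numbered libraries correlated at -0.296 to 0.191 (median -0.00818), with 2 of 36 pairs over 0.1. The replicate block gave 0 calls in the pooled comparison and 1 among grades, and 1 among grades without weak-cloaked replicate 1.

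Signs turned for 12 named genes that passed no edgeR test. Length and GC offsets gave EIF2AK2 -0.062, ISG15 0.011 and MAVS -0.077, and with the replicate block they gave -0.061, 0.011 and -0.078. MAVS was -0.018 with total-count scaling. On leaving out single libraries ISG15 ran from -0.21 to 0.020, IFIT1 from -0.39 to 0.041, IFI6 from -0.11 to 0.34, ADAR from -0.012 to 0.11, MAVS from -0.066 to 0.094, ZC3HAV1 from -0.0084 to 0.37, CXCL2 from -2.75 to 0.28, CXCL8 from -0.41 to 0.21, IER3 from -0.48 to 0.081, H1-4 from -1.74 to 0.15 and ATF3 from -0.016 to 0.22. The turned sign came without non-cloaked replicate 1 for IFIT1 and ATF3 and without non-cloaked replicate 3 for the others. The cause was not tested. With 3 control libraries, precision in genes with many counts was limited by the spread between replicates and not by depth. In genes with few counts, low counts limited it as well.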
